A study of Mus musculus with 12 samples.

Results

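The genes described here are 39 mouse genes of central carbon metabolism: 14 of glycolysis, 7 of the pentose phosphate pathway, 3 dehydrogenases, 8 of the pyruvate dehydrogenase step and 7 of the tricarboxylic acid (TCA) cycle. They were chosen by symbol from textbook pathways and by no rule on their values, but with earlier results of these data known. All 39 were found among the 27179 genes of the count table, and all 39 passed the filter on low counts that left 15969 genes for testing. RNA was sequenced from luminal and from basal cells that had been isolated by flow sorting from the mammary glands of untreated female FVB/N mice with a wild type genotype. Each of 3 stages (virgin, day 18.5 of pregnancy and day 2 of lactation) was represented by 2 mice according to the design text, which gives 12 libraries in 6 groups of 2. No age, pooling or number of cells is given in the labels, and the labels do not tie a library to a mouse. The p-values therefore measure the spread between these libraries.

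Glycolysis splits glucose into pyruvate in the cytosol, and lactate dehydrogenase can turn that pyruvate into lactate. The oxidative arm of the pentose phosphate pathway diverts glucose to make NADPH, the reducing agent of fatty acid synthesis, and its other arm interconverts sugar phosphates. The pyruvate dehydrogenase complex commits pyruvate to acetyl-CoA inside the mitochondrion, kinases (Pdk1 to Pdk4) switch it off by phosphorylation, and a phosphatase (Pdp1) switches it back on. Citrate made in the TCA cycle can leave the mitochondrion as the carbon source for fat. The luminal layer of the mammary epithelium secretes milk, whose lactose and fat draw on these pathways, whereas the basal layer is largely contractile myoepithelium.

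A library held 20015386 to 24723827 counts, of which the 39 genes together took 0.419% to 0.652%. Levels are given as CPM (counts scaled by the size of the library) after trimmed mean of M-values (TMM) scaling, with the value of each of the 2 libraries of a group. Changes are log2 differences ± SE from edgeR's quasi-likelihood test, with p-values adjusted by the Benjamini-Hochberg method over all genes tested, and a gene is said to have risen or fallen where the adjusted p was below 0.05. In luminal libraries the summed level of 8 luminal markers went from 10218 to 10846 CPM (virgin) and 8983 to 10651 (pregnant) to 4913 to 5468 (lactating), against 1506 to 2318 CPM over all basal libraries. The 8 basal markers summed to 64.5 to 94.8 CPM (virgin), 336 to 406 (pregnant) and 92.6 to 103 (lactating) in luminal libraries, against 16251 to 48260 CPM over all basal ones. The 6 fibroblast markers in luminal libraries summed to 236 to 384, 51.8 to 74.0 and 117 to 128 CPM at these stages. The part of these shifts in the luminal results was not tested. Sequencing lane followed cell type without exception, so lane and cell type cannot be told apart. In these bulk samples, fewer cells of a type and less RNA per cell cannot be told apart either.

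Scaling decided the direction of many changes in luminal libraries, including some of over 1 on the log2 scale. The 7 milk protein genes held 39.2% to 40.0% of the counts of the lactating luminal libraries, against 0.579% to 0.727% in virgin luminal libraries. Scaling by the library total alone, in place of TMM, shifted the median over all genes for luminal cells by -0.50 (log2) in pregnancy, by -0.85 at lactation and by -1.36 between virgin and lactation. The matching shifts in basal libraries were -0.16, -0.05 and -0.21. Members whose direction turned under that scaling are named as such in the sentences that give them. Others kept their sign under it but lost their call: Gpi1, Pgk1, Rpe, Idh2 and Mdh1 for luminal pregnancy, Ldha, Pgd and Cs for luminal lactation against pregnancy, and Ldha, Pdk1 and Pdk2 for luminal lactation against virgin. In basal cells these were Gpi1, Pfkp, Pgam1, Idh1, Pdhb, Pdk2, Cs and Ogdh for pregnancy, Pfkm for lactation against pregnancy, and Aldoa, Aldoc, Rpe, Tkt, Dlat, Idh3a and Ogdh for lactation against virgin. Some members that did not pass with TMM were called lower with the library total alone. In luminal cells these included Aldoa, Gapdh, Pgls, Idh1 and Me2 for lactation against pregnancy and against virgin.

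For some members the deposited counts cannot be assigned to 1 gene with certainty, because the rule for reads with several positions is not given in the sources used here. Over 20% of the 50-base windows of the annotated transcripts of Gapdh, Pgk1, Pgam1, Eno1, Pkm and Ldhb also occurred in transcripts of other genes. Gapdh, which makes the NADH of glycolysis, was listed at only 2.78 to 5.42 CPM in the 12 libraries, and 24.7% of its windows were shared with 218 other genes. Eno1, an enolase, took 6.7% to 8.6% of the counts listed for Eno1 and its near-identical copy Eno1b. Aldoa held 86.7% to 87.6% of the counts listed for it and the copies Aldoart1 and Aldoart2, and G6pdx held 89.5% to 92.0% of the counts listed for it and G6pd2. For Pgls, 20.6% of the exon bases overlapped Fam129c. Values of these genes are therefore uncertain as levels, although the shares on Eno1, Aldoa and G6pdx differed little between libraries.

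Upstream sequence is shown for 3 members that the results turn on: Dlat, the member with the largest luminal rise from virgin to lactation, Pdk4, the member with the largest luminal fall at lactation, and Ldha, whose upstream window held the most ACGTG cores among the members. ACGTG and GCGTG are the core letters of the element that hypoxia-inducible factors bind, and GGGCGG is the GC box that Sp-type factors bind. The sequences are RefSeq starts of build GRCm38.p6, read 5′ to 3′ on the gene's strand and cut before the first annotated exon. Capitals mark these cores and the GC box on either strand. The Dlat window is chr9:50659781-50660030 on the minus strand, the Pdk4 window is chr6:5496310-5496528 on the minus strand, and the Ldha window is chr7:46845554-46845803 on the plus strand, within the span of the gene but in no exon of GENCODE vM21.
Dlat: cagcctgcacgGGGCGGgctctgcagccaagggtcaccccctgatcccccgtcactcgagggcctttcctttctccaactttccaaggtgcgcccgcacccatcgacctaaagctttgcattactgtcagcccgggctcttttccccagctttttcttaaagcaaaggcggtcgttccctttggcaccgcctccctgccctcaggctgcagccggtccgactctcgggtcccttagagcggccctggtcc
Pdk4: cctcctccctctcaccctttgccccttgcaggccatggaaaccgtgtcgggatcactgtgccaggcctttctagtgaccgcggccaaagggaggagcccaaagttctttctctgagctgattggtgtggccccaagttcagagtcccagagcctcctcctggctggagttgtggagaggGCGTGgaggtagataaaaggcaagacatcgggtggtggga
Ldha: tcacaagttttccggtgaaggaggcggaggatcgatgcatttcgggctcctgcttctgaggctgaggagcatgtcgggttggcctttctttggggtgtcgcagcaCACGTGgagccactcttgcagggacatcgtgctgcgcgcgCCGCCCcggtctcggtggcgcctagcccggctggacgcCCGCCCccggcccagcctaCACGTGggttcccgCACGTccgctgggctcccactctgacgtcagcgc

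The Dlat window held 1 GC box and no core, the Pdk4 window held 1 GCGTG core, and the Ldha window held 5 ACGTG cores, counting each palindrome CACGTG once on each strand. Another Ldha start, with its upstream window at chr7:46846832-46847081 and not shown, held no ACGTG core and 1 GCGTG core. Promoter windows running from 250 bases before to 50 after a start were given for 36 of the 39 members, with 55 starts. Idh3a, Me2 and Pdp1 had no entry. Both strands were searched and motifs may overlap, since CACGTG holds the first of these cores on each strand. The core ACGTG occurred at 38.2% of the members' starts and at 19.6% of all 32851 starts in the table, and GCGTG at 63.6% against 32.4%. GGGCGG occurred at 63.6% against 35.7%, CCAAT at 49.1% against 37.4% and CACGTG at 10.9% against 7.2%. The palindrome TTCNNNGAA of STAT factors occurred at 3.6% of the members' starts and 8.3% of all starts. These shares describe letters and say nothing about binding.

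From virgin to pregnancy, 20 of the 39 members rose and 2 fell in luminal cells, where 21.8% of all genes tested rose and 24.1% fell. With the library total alone the same comparison gave 12 higher and 12 lower members. From pregnancy to lactation, 21 members rose and 7 fell in luminal cells, against 23.7% and 24.6% of all genes, and the library total alone gave 7 higher and 22 lower. Over the whole interval from virgin to lactation, 28 rose and 4 fell, against 26.7% and 33.5% of all genes, and the library total alone gave 9 higher and 22 lower. The median log2 change of the members over that interval was 0.96, and that of all genes was -0.15. The 9 members that rose from virgin to lactation in luminal cells under both scalings were Pfkl, Aldoc, Pgd, Tkt, Pdha1, Pdhb, Dlat, Cs and Mdh1. Pfkp, Pdk3, Pdk4 and Pdp1 fell under both.

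In basal cells, 24 members rose and 1 fell in pregnancy, where 15.6% of all genes rose and 14.4% fell. At lactation the direction was mostly the other way, with 2 members higher and 15 lower, against 15.7% and 17.4% of all genes. Between virgin and lactating basal cells, 15 members rose and 5 fell, and 23.7% of all genes were called in each direction. The library total alone gave 16 and 2, 1 and 15, and 8 and 9 members in these 3 comparisons, and no member called in basal cells changed sign. Of all genes tested, it called 1647 higher and 3486 lower, 2021 and 2954, and 2439 and 5202. The lactation count rested on single libraries: without basal pregnant replicate 1 or without basal lactating replicate 2, 8 members fell in place of 15. Only Gapdh, whose level is uncertain as given above, was called in none of the 11 comparisons.

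**Figure D1:**
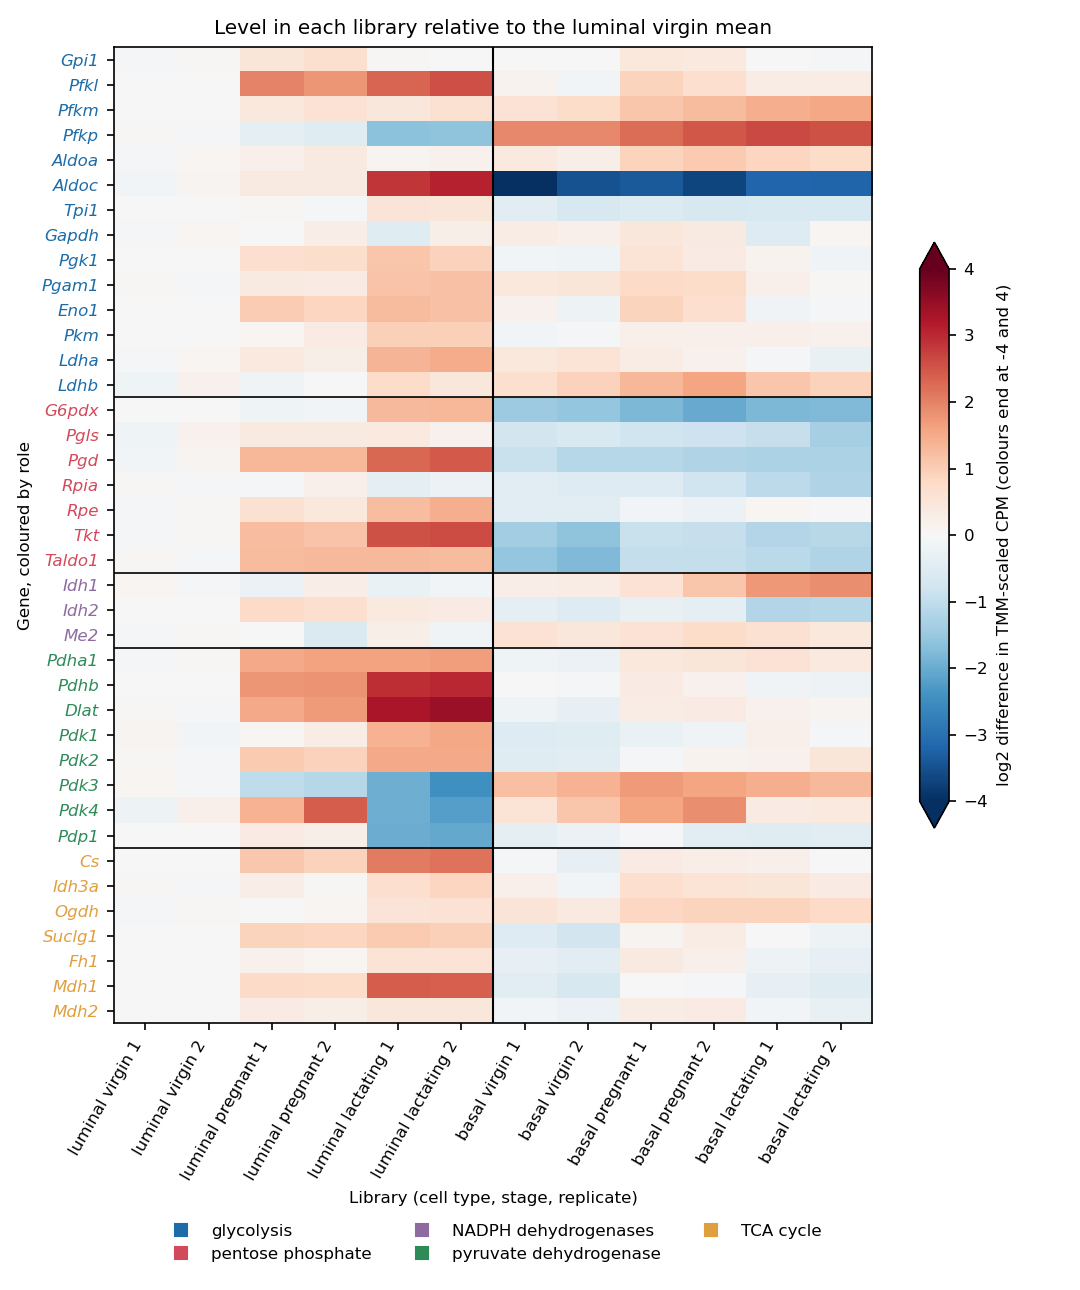
Log2 level of each of the 39 genes (rows, coloured by role) in each of the 12 libraries (columns), relative to the mean of the 2 luminal virgin libraries, in TMM-scaled CPM. Dlat, Pdhb, Tkt and Aldoc are darkest red in the lactating luminal libraries and Aldoc is darkest blue in the basal ones, while pale luminal rows such as Ogdh, Fh1 and Mdh2 turn direction when libraries are scaled by their total.

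From virgin to lactation, Dlat and Pdhb of the pyruvate dehydrogenase complex had the largest luminal rises among the members. Dlat (chr9:50634633-50659780) encodes the acetyltransferase core of the complex. Its level was 43.7 and 40.2 CPM in the luminal libraries of virgin mice, 121 and 137 CPM in those of pregnancy and 402 and 454 CPM in those of lactation. The 3 stages did not overlap, and the log2 change from virgin to lactation was 3.35 ± 0.12 (10.2-fold, adjusted p = 3.69e-10). Pdhb (chr14:8165991-8173303), the beta subunit of the decarboxylase, stood at 43.8 and 43.0, then 148 and 152, then 339 and 350 CPM. That is a change of 2.99 ± 0.10 from virgin to lactation (adjusted p = 3.13e-10), with a rise at both steps of 1.79 ± 0.10 and 1.20 ± 0.09. Pdha1, the alpha subunit of the same enzyme, was at 115 and 122, 340 and 363, and 365 and 381 CPM. It rose in pregnancy by 1.57 ± 0.10 on the log2 scale (adjusted p = 1.50e-07), and its lactating libraries differed from the pregnant ones by 0.09 ± 0.10, which did not pass (adjusted p = 0.503). With the library total alone that lactation step was called lower, at -0.77. All 3 subunit genes kept their rise in pregnancy with the library total alone, at 1.11 for Dlat, 1.28 for Pdhb and 1.06 for Pdha1.

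The same 3 genes moved less in basal cells. Basal Dlat was at 37.3 and 33.6 CPM (virgin), 51.6 and 52.8 (pregnant) and 47.4 and 45.6 (lactating). Basal Pdhb stood at 43.1 and 41.4, 55.0 and 49.2, and 39.7 and 37.7 CPM. In virgin cells neither differed between the 2 types past the test (adjusted p = 0.0713 for Dlat and 0.722 for Pdhb). With the library total alone Dlat was called lower in virgin basal than in virgin luminal cells, at -0.40 (edgeR adjusted p = 0.00627). Basal Pdha1, at 105 and 102 CPM in virgin libraries, rose in pregnancy by 0.66 ± 0.10 (adjusted p = 4.42e-04) and was at 176 and 157 CPM in lactation. The pregnancy rise of basal Pdhb, 0.30 ± 0.09 (adjusted p = 0.0282), lost its call without basal virgin replicate 1 or 2 or basal pregnant replicate 1, with adjusted p from 0.0680 to 0.194.

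Pdk4, the kinase gene known to respond to fasting and fatty acids, had the widest range of all members in luminal cells as a ratio of the highest to the lowest library. Its level (chr6:5483351-5496278) was 191 and 253 CPM (virgin), 571 and 1192 (pregnant) and 56.3 and 48.3 (lactating) across the luminal libraries. The 2 pregnant libraries differed from each other by more than those of any other stage, yet both were above every virgin and lactating library. The rise in pregnancy was 1.99 ± 0.29 (adjusted p = 1.19e-04), and 1.36 without luminal pregnant replicate 2. The fall at lactation was a log2 change of -4.08 ± 0.32 (16.9-fold lower, adjusted p = 7.90e-07), or -3.44 without that library. Lactating luminal cells also lay below virgin ones, by -2.09 ± 0.30 (adjusted p = 5.20e-05).

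Basal cells held more Pdk4 than luminal cells in virgin and in lactating mice. In pregnant mice the difference, basal minus luminal, did not pass the test (-0.28 ± 0.28, edgeR adjusted p = 0.387). The basal libraries were at 323 and 472 CPM (virgin), 656 and 797 (pregnant) and 276 and 291 (lactating). The basal rise in pregnancy, 0.87 ± 0.28 (adjusted p = 0.0330), lost its call without basal virgin replicate 1 (adjusted p = 0.215), basal pregnant replicate 1 (0.0507) or basal pregnant replicate 2 (0.164). The basal fall at lactation was -1.36 ± 0.28 (adjusted p = 0.00330). The fall was larger in luminal than in basal cells: the difference of the 2 changes was -2.72 on the log2 scale (adjusted p = 2.54e-04), and -2.09 without luminal pregnant replicate 2.

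None of the other kinases both rose in pregnancy and fell at lactation in luminal cells, as Pdk4 did. Pdk2 shared the pregnancy rise and Pdk3 the fall at lactation. Pdk1 was at 26.8 and 23.5, 26.8 and 30.7, and 65.7 and 72.6 CPM in luminal libraries, a rise at lactation of 1.27 ± 0.13 (adjusted p = 5.23e-06). Luminal Pdk2 was at 17.4 and 16.5 CPM (virgin), 34.9 and 32.2 (pregnant) and 48.0 and 48.7 (lactating). Its rise in pregnancy was 0.99 ± 0.13 (adjusted p = 4.33e-05), while its further rise at lactation of 0.53 ± 0.12 turned to -0.33 with the library total alone. Pdk3 fell at both steps in luminal cells, from 8.82 and 7.90 through 4.12 and 3.80 to 2.14 and 1.52 CPM, with log2 changes of -1.08 ± 0.16 and -1.11 ± 0.21. In basal cells Pdk3 stayed between 19.4 and 27.1 CPM, and no change between stages passed the test. Basal Pdk1 and Pdk2 rose from virgin to lactation by 0.55 ± 0.13 and 0.79 ± 0.13.

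Pdp1 encodes a phosphatase that reactivates the complex. In luminal cells it was at 16.1 and 15.9 CPM (virgin), 20.3 and 18.7 (pregnant) and 4.05 and 3.86 (lactating). The fall at lactation was -2.30 ± 0.17 (adjusted p = 5.15e-07). The 6 basal libraries held 11.5 to 15.4 CPM, with no change between stages past the test. Another phosphatase gene of this step, Pdp2, is in the wider list of pathway genes and went the other way. Luminal Pdp2 rose at lactation by 3.63 ± 0.33 (edgeR adjusted p = 2.92e-06), and by 2.76 with the library total alone. Basal Pdp2 fell in pregnancy by -1.29 ± 0.29 and rose at lactation by 1.59 ± 0.29.

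Counts per base allow isoforms of one enzyme to be compared within a library, and such shares do not depend on the scaling between libraries. Pdk4 made 76.2% and 82.2% of the summed Pdk1 to Pdk4 level in virgin luminal libraries, 87.9% and 94.0% in pregnant ones and 31.7% and 27.7% in lactating ones. In lactating luminal libraries Pdk2 held the largest share, 41.3% and 42.7%, and Pdk1 held 24.9% and 28.0%. Basal libraries had 75.9% to 90.2% of this family on Pdk4 at all stages. The length-scaled sum of the 4 kinases was 72.7 and 89.1 CPM per kb (virgin), 188 and 367 (pregnant) and 51.4 and 50.4 (lactating) across the luminal libraries.

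**Figure D2:**
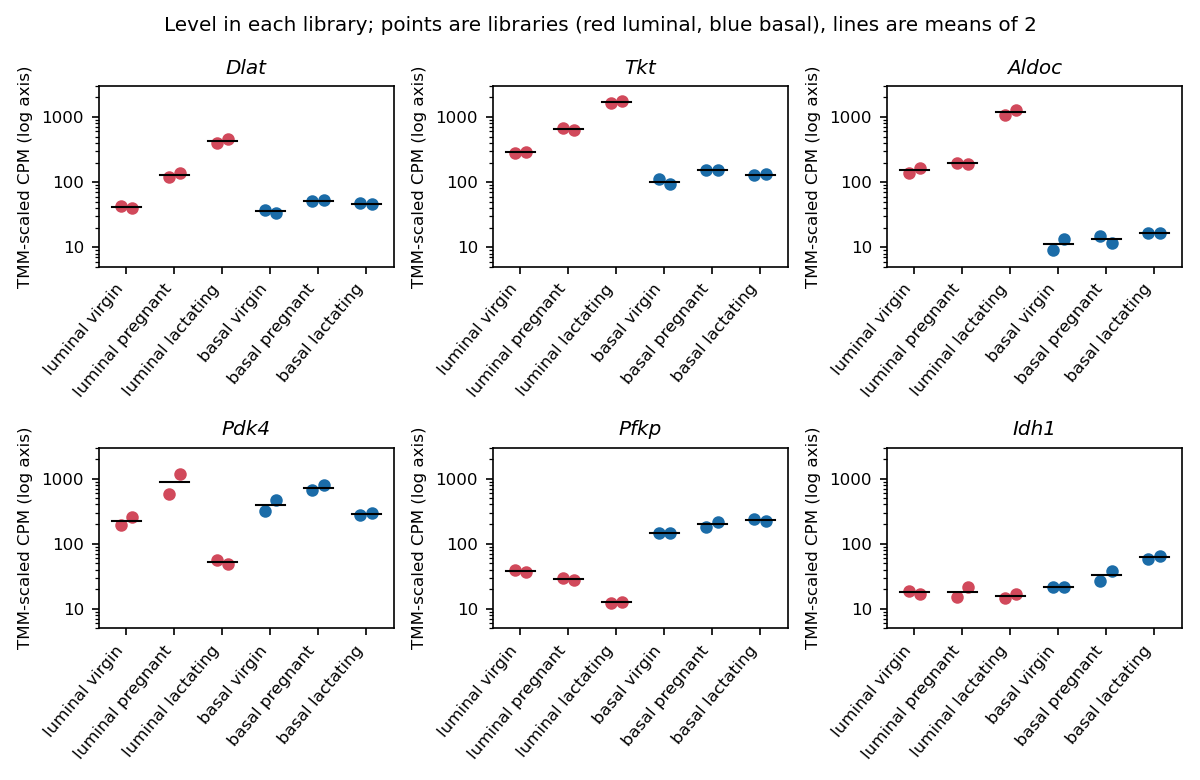
TMM-scaled CPM (log axis, the same in all panels) of 6 members in each library, with the mean of each group of 2 as a line. Dlat, Tkt and Aldoc are highest in lactating luminal libraries, Pdk4 is highest in pregnant libraries of both types, and Pfkp and Idh1 are highest in lactating basal libraries.

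In the pentose phosphate pathway, all 7 genes were lower in basal than in luminal cells at every stage, although Rpia turned to higher in lactating cells with the library total alone. From virgin to lactation, 5 of the 7 rose in luminal cells, of which G6pdx, Rpe and Taldo1 turned sign with the library total alone. Tkt, a transketolase of the sugar-exchanging arm (chr14:30549131-30574724), was the most abundant in CPM: 280 and 294 (virgin), 668 and 626 (pregnant) and 1673 and 1763 (lactating) across the luminal libraries. It rose at both steps, by 1.17 ± 0.11 (adjusted p = 4.00e-06) and 1.41 ± 0.11 (adjusted p = 1.02e-06), and both rises held with the library total alone. Taldo1, the transaldolase of the same arm, was at 145 and 138, 339 and 351, and 350 and 344 CPM. Its rise came in pregnancy, 1.28 ± 0.10 (adjusted p = 7.35e-07), and the lactating libraries differed from the pregnant ones by 0.01 ± 0.10. With the library total alone that lactation step was called lower, at -0.85.

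The oxidative arm has 2 genes for NADPH-making enzymes. Pgd, phosphogluconate dehydrogenase (chr4:149149991-149166705), was at 99.7 and 114 CPM (virgin), 266 and 268 (pregnant) and 521 and 586 (lactating) across the luminal libraries. It rose at both steps, by 1.32 ± 0.11 and 1.05 ± 0.11 (adjusted p = 1.58e-06 and 1.03e-05), but the lactation step was 0.20 and did not pass with the library total alone (adjusted p = 0.169). G6pdx, the first enzyme of the pathway, was at 70.7 and 72.3, 63.6 and 66.2, and 175 and 179 CPM. Its luminal rise came at lactation, 1.45 ± 0.10 (adjusted p = 2.26e-07), and was 0.59 with the library total alone. The change of G6pdx from virgin to lactation, 1.31 ± 0.09, turned to -0.05 with the library total alone.

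The remaining genes of the pathway changed less. Rpe, an epimerase, was at 25.8 and 27.0, 40.0 and 35.4, and 61.8 and 72.6 CPM in luminal libraries, and its rise of 1.35 ± 0.11 from virgin to lactation turned to -0.01 with the library total alone. Rpia, an isomerase, was at 43.1 and 39.7, 40.3 and 47.1, and 32.5 and 35.2 CPM. The fall of luminal Rpia at lactation (-0.37 ± 0.12, adjusted p = 0.0269) lost its call without luminal pregnant replicate 2 (adjusted p = 0.214), luminal lactating replicate 1 (0.210) or luminal lactating replicate 2 (0.0824). Pgls, the lactonase between G6pdx and Pgd, lay between 6.92 and 10.1 CPM in luminal and between 3.08 and 5.07 CPM in basal libraries, and no change between stages passed the test. With the library total alone Pgls was called lower from virgin to lactation, at -1.09 in luminal and -0.65 in basal cells.

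Basal cells showed little of the luminal pattern in this pathway. Basal Tkt was at 110 and 93.9, 155 and 152, and 127 and 133 CPM. Basal Taldo1 was at 48.4 and 41.6, 73.2 and 73.0, and 67.3 and 62.3 CPM. Both rose in pregnancy, by 0.59 ± 0.11 and 0.70 ± 0.10 (adjusted p = 0.00210 and 3.43e-04). Basal Pgd was at 57 and 48.0, 48.4 and 46.2, and 44.5 and 44.1 CPM, and no change between stages passed. With the library total alone its change from virgin to lactation was called lower, at -0.45. G6pdx was the single member to fall in basal pregnancy, from 25.9 and 24.7 to 20.4 and 17.6 CPM (-0.41 ± 0.10, adjusted p = 0.00756), and without basal pregnant replicate 2 the call was lost (adjusted p = 0.0894). Basal Rpia fell from virgin to lactation by -0.64 ± 0.13 (adjusted p = 0.00125).

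Idh1 and Idh2 encode the cytosolic and the mitochondrial isocitrate dehydrogenase that make NADPH, and they moved in opposite directions in basal cells. Basal Idh1 (chr1:65158616-65186479) was at 21.5 and 21.9 CPM (virgin), 26.8 and 38.2 (pregnant) and 58.8 and 65.3 (lactating). The groups did not overlap, and the change from virgin to lactation was 1.52 ± 0.18 (2.86-fold, adjusted p = 3.12e-05). Of this, the lactation step was 0.93 ± 0.17 (adjusted p = 0.00176), while the pregnancy step of 0.58 ± 0.18 (adjusted p = 0.0259) lost its call without basal pregnant replicate 2 (adjusted p = 0.276), basal virgin replicate 1 (0.104) or basal virgin replicate 2 (0.0793). Luminal Idh1 lay between 14.7 and 21.3 CPM in all 6 libraries, with no change past the test. With the library total alone it was called lower in pregnancy (-0.49), at lactation against pregnancy (-1.06) and at lactation against virgin (-1.55).

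Basal Idh2 was at 65.0 and 59.2, 68.7 and 63.9, and 36.9 and 38.3 CPM. It fell at lactation by -0.82 ± 0.10 on the log2 scale (adjusted p = 9.73e-05). In luminal cells Idh2 was at 84.1 and 83.3, 141 and 133, and 111 and 104 CPM, with a rise in pregnancy of 0.71 ± 0.09 (adjusted p = 5.30e-05), which was 0.21 and did not pass with the library total alone (adjusted p = 0.125). The luminal fall at lactation, -0.35 ± 0.09 (adjusted p = 0.00773), lost its call without luminal pregnant replicate 1 (adjusted p = 0.0565) or luminal lactating replicate 2 (0.107). Me2, the mitochondrial NAD-linked malic enzyme, lay between 6.75 and 12 CPM in luminal and between 13.7 and 16.9 CPM in basal libraries, and no change between stages passed. With the library total alone luminal Me2 was called lower from virgin to lactation, at -1.30.

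Fibroblast and endothelial markers and Lep differed between stages in basal libraries, whereas the summed adipocyte markers overlapped between stages. The summed level of the 8 adipocyte markers in basal libraries stood at 138 and 261 CPM (virgin), 108 to 230 (pregnant) and 158 to 170 (lactating). Fabp4 supplied most of it, whereas Adipoq, Plin1, Cfd, Retn and Cidec were each at 0.5 CPM or below in every library. Lep was at 1.1 and 2.2, 14.5 and 62.6, and 58.6 and 40.7 CPM in basal libraries. The 6 fibroblast markers summed to 186 to 268, 662 to 851 and 424 to 490 CPM in basal libraries, with Dcn supplying most of it in the pregnant and lactating stages, and the 6 endothelial markers to 219 to 359, 85.2 to 116 and 96.1 to 113 CPM. Luminal libraries held 60.9 to 80.2 CPM of the endothelial markers in virgin and 15.2 to 21.8 CPM in later stages. Their part in the changes of the members was not tested.

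Milk protein genes were detected in basal libraries too, at a summed 73.8 to 114 (virgin), 3419 to 5023 (pregnant) and 4041 to 4325 CPM (lactating). When the luminal profile of the stage was subtracted until milk protein counts reached 0, the basal pregnancy count was 23 higher and 1 lower, and the basal lactation count was 2 higher and 14 lower. The basal rise of Aldoc from virgin to lactation (0.56 ± 0.18, adjusted p = 0.0227) then fell short, at 0.24 (adjusted p = 0.291), as it did without basal virgin replicate 1 (0.209).

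In glycolysis the liver-type phosphofructokinase and aldolase C led the luminal rise. Pfkl (chr10:77986947-78009807), which commits glucose to glycolysis, was at 97.0 and 96.3 CPM (virgin), 382 and 330 (pregnant) and 481 and 581 (lactating) across the luminal libraries. Most of that came in pregnancy (1.88 ± 0.13, adjusted p = 3.33e-07), and the step to lactation of 0.58 ± 0.13 turned to -0.28 with the library total alone. Aldoc (chr11:78323073-78327781), the aldolase known from brain, was at 139 and 165, 195 and 193, and 1088 and 1273 CPM. Its rise came at lactation, 2.60 ± 0.17 (6.08-fold, adjusted p = 2.21e-07), and was 1.75 with the library total alone. The pregnancy step of Aldoc did not pass (0.35 ± 0.16, adjusted p = 0.0939).

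The platelet-type phosphofructokinase Pfkp (chr13:6579874-6649060) went the other way. In luminal cells it was at 40.0 and 36.8, 29.7 and 27.3, and 12.3 and 12.7 CPM, a change of -1.62 ± 0.12 from virgin to lactation (adjusted p = 1.52e-07). In basal cells it was at 146 and 146, 182 and 214, and 242 and 226 CPM, a rise of 0.68 ± 0.10 (adjusted p = 2.17e-04). Luminal and basal levels did not overlap at any stage. The muscle type, Pfkm, was at 30.4 and 34.1, 43.4 and 49.3, and 55.6 and 59.9 CPM in basal libraries and rose by 0.84 ± 0.11 from virgin to lactation (adjusted p = 6.81e-05). Luminal Pfkm lay between 19.9 and 30.8 CPM, and its rise from virgin to lactation, 0.53 ± 0.12, turned to -0.83 with the library total alone.

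Lactate dehydrogenase A, Ldha (chr7:46842274-46855627), rose in luminal and fell in basal cells. Luminal libraries were at 366 and 407 CPM (virgin), 503 and 455 (pregnant) and 986 and 1085 (lactating). The step to lactation was 1.11 ± 0.13 (adjusted p = 1.50e-05), but with the library total alone it was 0.25 and did not pass (adjusted p = 0.101). Basal libraries were at 517 and 559, 479 and 435, and 366 and 313 CPM, a change of -0.66 ± 0.12 from virgin to lactation (adjusted p = 9.05e-04). Ldhb, the heart-type subunit, was at 14.2 to 26.7 CPM in luminal and 24.8 to 47.8 CPM in basal libraries. Basal Ldhb rose in pregnancy by 0.68 ± 0.15 (adjusted p = 0.00536), a call lost without basal virgin replicate 1 (0.0555) or basal pregnant replicate 2 (0.0540). The luminal rise at lactation of 0.67 ± 0.17 turned to -0.19 with the library total alone.

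The lower glycolytic enzymes form the common trunk to pyruvate. Luminal Pkm, a pyruvate kinase, was by CPM the most abundant of them when Gapdh, of uncertain level, and the counts listed for Eno1b are left aside. It was at 435 and 440, 466 and 551, and 846 and 853 CPM. Its rise of 0.96 ± 0.11 from virgin to lactation turned to -0.40 with the library total alone. Luminal Tpi1, an isomerase, was at 160 and 161 CPM in virgin and 230 and 225 CPM in lactating libraries, and its rise of 0.50 ± 0.10 turned to -0.86. Luminal Pgk1, a kinase that yields ATP, rose by 1.01 ± 0.11 from virgin to lactation, Pgam1, a mutase, by 1.15 ± 0.10 and Eno1 by 1.22 ± 0.13, and these turned to -0.35, -0.21 and -0.14 with the library total alone. The direction of these 5 trunk genes in luminal cells from virgin to lactation thus depended on the scaling.

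Of the basal trunk genes, Pgk1, Pgam1 and Eno1 rose in pregnancy and fell at lactation, although the Pgam1 rise did not pass with the library total alone (0.14, adjusted p = 0.347). Basal Eno1 was at 27.8 and 21.5, 46.3 and 39.4, and 22.5 and 23.9 CPM, with changes of 0.80 ± 0.13 and -0.89 ± 0.13 (adjusted p = 7.34e-04 and 4.44e-04). With the counts of Eno1b added, an alternative chosen after seeing the data, these changes were 0.68 and -0.88. Basal Pgam1 was at 29.8 and 31.1, 38.3 and 36.8, and 25.5 and 23.2 CPM, and fell at lactation by -0.62 ± 0.10 (adjusted p = 5.98e-04). Basal Pgk1 rose by 0.58 ± 0.11 in pregnancy, and its fall at lactation, -0.44 ± 0.11, lost its call without basal pregnant replicate 1 (adjusted p = 0.110) or basal lactating replicate 2 (0.121). Basal Pkm (406 to 507 CPM) and Tpi1 (102 to 119 CPM) did not change past the test.

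Gpi1, which converts glucose phosphate to fructose phosphate, rose in pregnancy and fell at lactation in both cell types, although with the library total alone the pregnancy rise did not pass in either (0.05, adjusted p = 0.645, in luminal and 0.26, adjusted p = 0.0526, in basal cells). Luminal Gpi1 was at 113 and 119, 163 and 179, and 119 and 114 CPM, and basal Gpi1 at 117 and 114, 156 and 152, and 116 and 111 CPM. The pregnancy changes were 0.56 ± 0.09 and 0.42 ± 0.09, and the lactation changes -0.56 ± 0.09 and -0.44 ± 0.09. Aldoa, the muscle-type aldolase, lay between 210 and 286 CPM in luminal libraries, with no change between stages past the test. With the library total alone luminal Aldoa was called lower from virgin to lactation, at -1.22. In basal libraries it was at 292 and 262, 410 and 462, and 406 and 369 CPM, a rise in pregnancy of 0.65 ± 0.12 (adjusted p = 0.00126).

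Within the phosphofructokinase family, Pfkl made up a growing part of the luminal level per base: 61.2% and 61.8% (virgin), 86.2% and 84.1% (pregnant), then 91.3% and 92.2% (lactating). Among basal cells Pfkp held the largest share in virgin and lactating mice, 48.7% and 51.0%, and 54.8% and 52.5%. In basal pregnant libraries Pfkl held 44.6% and 37.4% and Pfkp 42.2% and 48.1%, so the order differed between the 2 libraries. Among aldolases, Aldoc held 41.5% and 42.7%, 44.7% and 42.0%, and 82.8% and 84.5% in luminal libraries, and 2.65% to 5.24% in basal ones. Ldha made 93.9% to 97.1% of lactate dehydrogenase in luminal libraries. Ldhb made 6.70% and 7.47% in virgin basal libraries and 11.2% to 14.1% in the later basal ones.

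**Figure D3:**
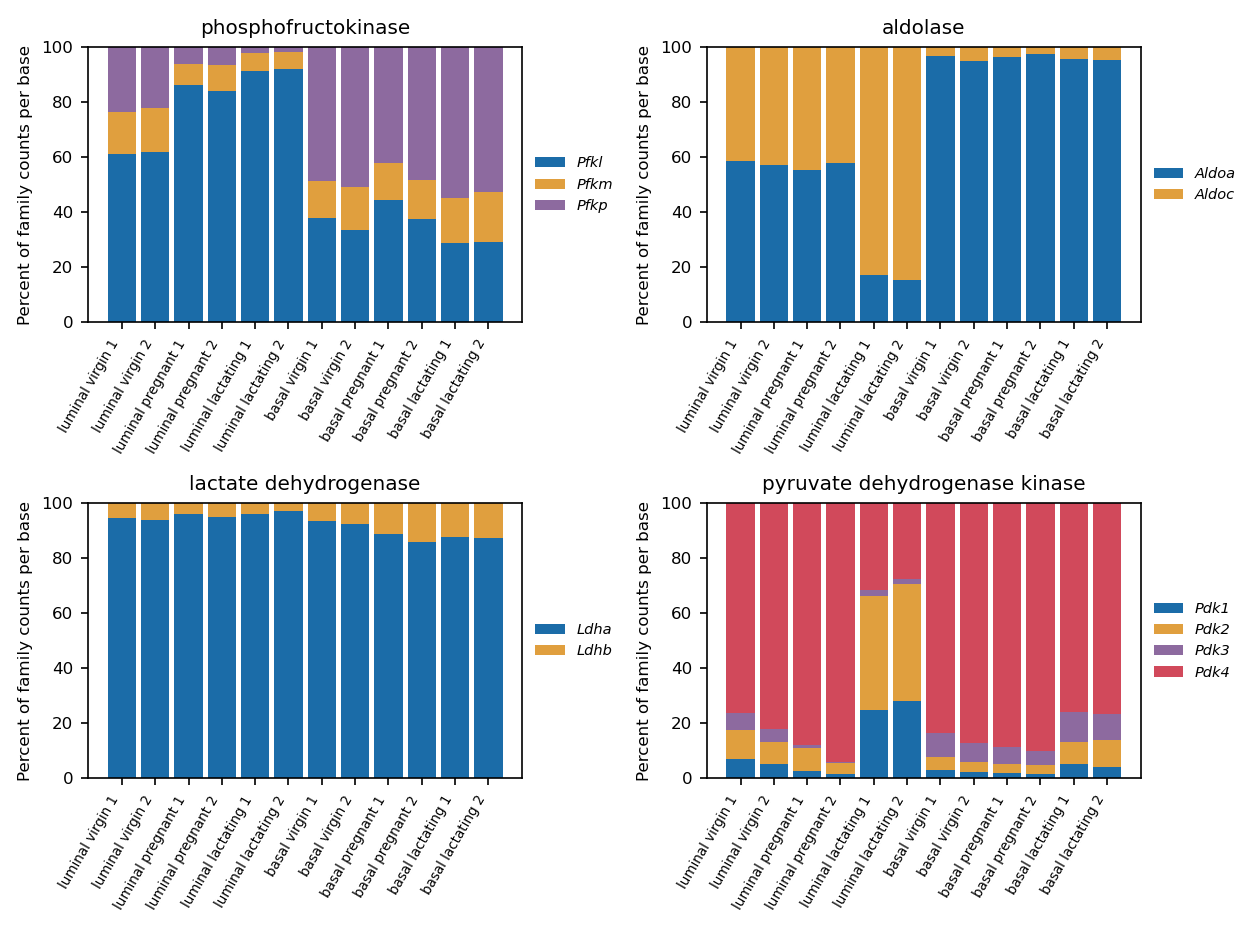
Share (percent) of each isoform in the summed counts per base of its enzyme family, in each of the 12 libraries. Aldoc covers over 82% of the aldolase bars in lactating luminal libraries, and Pdk4 covers over 75% of the kinase bars in all basal libraries but 27.7% and 31.7% in lactating luminal ones.

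Among TCA cycle genes, Cs and Mdh1 rose most in luminal cells. Cs (chr10:128337727-128362482) encodes citrate synthase and was at 155 and 153 CPM (virgin), 323 and 294 (pregnant) and 656 and 692 (lactating) across the luminal libraries. It rose by 2.13 ± 0.12 from virgin to lactation (adjusted p = 1.79e-08), and by 0.77 with the library total alone. Mdh1 (chr11:21556692-21571934), the cytosolic malate dehydrogenase of the malate shuttle, was at 139 and 138, 238 and 232, and 739 and 731 CPM. Its step to lactation was 1.64 ± 0.11 (3.13-fold, adjusted p = 1.87e-07), and 0.79 with the library total alone.

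The other 5 TCA cycle genes also rose in luminal cells from virgin to lactation, but Suclg1 (1.01 ± 0.11), Idh3a (0.77 ± 0.13), Ogdh (0.54 ± 0.10), Fh1 (0.54 ± 0.10) and Mdh2 (0.46 ± 0.10) all turned to between -0.35 and -0.90 with the library total alone. Suclg1, a succinyl-CoA ligase subunit, was at 54.4 and 53.7, 100.2 and 97.8, and 112 and 106 CPM, and its pregnancy rise of 0.87 ± 0.11 (adjusted p = 4.02e-05) held under that scaling at 0.37. Idh3a, a subunit of the NAD-linked isocitrate dehydrogenase, lay between 63.1 and 117 luminal CPM, and Ogdh, of the oxoglutarate dehydrogenase complex, between 152 and 236. Fh1, fumarase, lay between 63.9 and 93.5 luminal CPM and Mdh2, the mitochondrial malate dehydrogenase, between 173 and 240.

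All 7 TCA cycle genes rose in basal pregnancy with TMM scaling, and with the library total alone Cs (0.34, adjusted p = 0.0586) and Ogdh (0.26, adjusted p = 0.0792) did not pass. Suclg1 rose most, from 37.8 and 32.3 to 58.5 and 67.0 CPM (0.84 ± 0.11, adjusted p = 1.73e-04), and Fh1 rose from 50.9 and 48.0 to 81.4 and 73.6 CPM (0.65 ± 0.10, adjusted p = 3.39e-04). The other 5 changes lay between 0.42 for Ogdh and 0.55 for Idh3a. At lactation Suclg1, Fh1, Mdh1 and Mdh2 fell, by -0.33 ± 0.11, -0.54 ± 0.10, -0.37 ± 0.10 and -0.51 ± 0.10. The falls of Suclg1 and Mdh1 lost their calls when basal lactating replicate 2 was left out (adjusted p = 0.247 and 0.145). The Suclg1 fall also lost its call without basal pregnant replicate 2 (adjusted p = 0.215) and without the filter on low counts (0.0565), and the Mdh1 fall without basal pregnant replicate 1 (0.105).

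The cell types were then compared within each stage. In virgin mice 10 members were higher and 15 lower in basal than in luminal cells, where 31.5% of all genes were higher and 31.2% lower. In pregnant mice the counts were 10 and 20, against 35.9% and 33.9%. In lactating mice they were 10 and 27, against 39.2% and 35.4%. The median log2 difference of the members, basal minus luminal, was -0.17, -0.39 and -1.11, and that of all genes was -0.01, 0.02 and 0.08. With the library total alone the counts were 8 and 21, 11 and 18, and 14 and 14 members. Of all genes tested, that scaling called 4284 higher and 5925 lower, 6529 and 4326, and 10207 and 2529. In lactating mice it thus called as many members lower as higher, where far more of all genes were higher than lower.

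The largest difference was in Aldoc, at 9.08 to 16.7 CPM in basal libraries of all stages. The log2 difference from luminal cells ran from -3.75 ± 0.19 (virgin) through -3.88 ± 0.19 (pregnant) to -6.15 ± 0.20 at lactation (71.0-fold lower in basal cells, adjusted p = 5.21e-11). In lactating mice the next were Tkt (-3.73 ± 0.12), Pgd (-3.64 ± 0.13), Dlat (-3.20 ± 0.12), Pdhb (-3.15 ± 0.10), G6pdx (-3.08 ± 0.10), Mdh1 (-2.81 ± 0.11) and Taldo1 (-2.42 ± 0.11). Of these, Dlat and Pdhb did not pass the test in virgin cells, although Dlat was called lower there with the library total alone (-0.40). Tkt, Pgd, G6pdx, Taldo1 and Mdh1 were already lower in virgin basal cells, by -0.54 for Mdh1 to -1.66 for Taldo1. Pkm, Rpia, Idh3a, Fh1 and Mdh2 were lower in lactating basal cells with TMM scaling (by -0.37 to -0.83) and turned to higher values with the library total alone.

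Genes higher in basal cells were led by Pfkp and Pdk3. The Pfkp difference ran from 1.93 ± 0.11 (virgin) through 2.79 ± 0.11 (pregnant) to 4.23 ± 0.12 at lactation (18.7-fold, adjusted p = 2.65e-11). The Pdk3 difference was 1.30 ± 0.14, 2.72 ± 0.15 and 3.56 ± 0.19. In lactating mice Pdk4 (2.44 ± 0.30), Idh1 (1.98 ± 0.19), Pdp1 (1.54 ± 0.17) and Pfkm (0.97 ± 0.11) followed. Pdp1 had the other direction in pregnancy, -0.53 ± 0.14 (adjusted p = 0.00521), which did not pass with the library total alone (-0.33, adjusted p = 0.081). In pregnant mice Ldhb was 1.53 ± 0.16 and Me2 0.91 ± 0.19 higher in basal cells. The higher Me2 level in lactating basal cells, 0.46 ± 0.19 (adjusted p = 0.0485), lost its call under DESeq2 (adjusted p = 0.0774) and without luminal lactating replicate 2 (0.370) or basal lactating replicate 1 (0.193).

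Whether the 2 cell types changed by different amounts was tested directly, as the luminal change minus the basal change. For pregnancy, 11 members had a positive and 4 a negative difference, where 14% of all genes were positive and 16.7% negative, and the library total alone gave 5 and 10. Of all genes tested, that scaling called 1008 positive and 4614 negative. Pdhb (1.48), Pgd (1.47), Pfkl (1.11) and Dlat (1.07) were the largest positive differences after Pdk4 is set aside. The Pdk4 difference of 1.12 (adjusted p = 0.0482) was 0.49 (adjusted p = 0.243) without luminal pregnant replicate 2, and it also lost its call with DESeq2 size factors (0.0532). With the library total alone Ldha, Tkt, Taldo1, Idh2, Pdk4 and Cs, 6 of the 15, lost their calls. The negative ones were Pdk3 (-1.42), Pfkp (-0.86), Ldhb (-0.76) and Fh1 (-0.53).

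For lactation, 24 members had a positive and 5 a negative difference, where 18.3% of all genes were positive and 18% negative. The library total alone gave 9 and 12, and 14 of the 29 kept both call and direction under it. Of all genes tested, it called 1012 positive and 7921 negative. Aldoc (2.27), Mdh1 (2.01), Dlat (1.90), Tkt (1.65), Pdhb (1.63), Ldha (1.54), Pgam1 (1.44) and Cs (1.32) were the largest positive differences, and all 8 were also positive and called with the library total alone. All 7 TCA cycle genes were positive, although Ogdh, Suclg1 and Mdh2 turned negative with the library total alone, at -0.29, -0.34 and -0.12, and Idh3a and Fh1 did not pass under it, which left Cs and Mdh1 called. The 5 negative ones were Pdk4 (-2.72), Pdp1 (-2.07), Pfkp (-1.43), Idh1 (-1.14) and Pdk3 (-0.84), and these stayed called and negative under that scaling. The Pdk3 difference lost its call without luminal lactating replicate 2 (adjusted p = 0.152).

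Set side by side, 17 members rose in pregnancy in both cell types, of the 20 luminal and 24 basal rises, although the luminal rises of Pfkm, Pgam1 and Mdh2 among them turned sign with the library total alone. Of all genes tested, 6.03% rose in both. Pfkp fell in luminal and rose in basal cells, and its luminal fall lost its call without luminal virgin replicate 1 (adjusted p = 0.0551). At lactation Pfkl, Pgk1, Pgam1, Ldha, Ldhb, Pdhb, Fh1 and Mdh1, 8 in all, rose in luminal and fell in basal cells, but of these the luminal rises of Pfkl, Pgk1, Pgam1, Ldhb and Fh1 turned sign with the library total alone and that of Ldha did not pass. Of all genes tested, 3.46% rose in luminal and fell in basal cells at lactation. Gpi1, Rpia, Idh2 and Pdk4 fell in both, as did 7.26% of all genes. A further 13 rose in luminal cells and did not pass in basal ones, against 15.3% of all genes. Of these 13, Aldoc, Tkt, G6pdx, Dlat and Pdk1 kept their luminal rise with the library total alone, Pgd and Cs lost the call, and Tpi1, Pkm, Rpe, Pdk2, Idh3a and Ogdh turned sign.

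**Figure D4:**
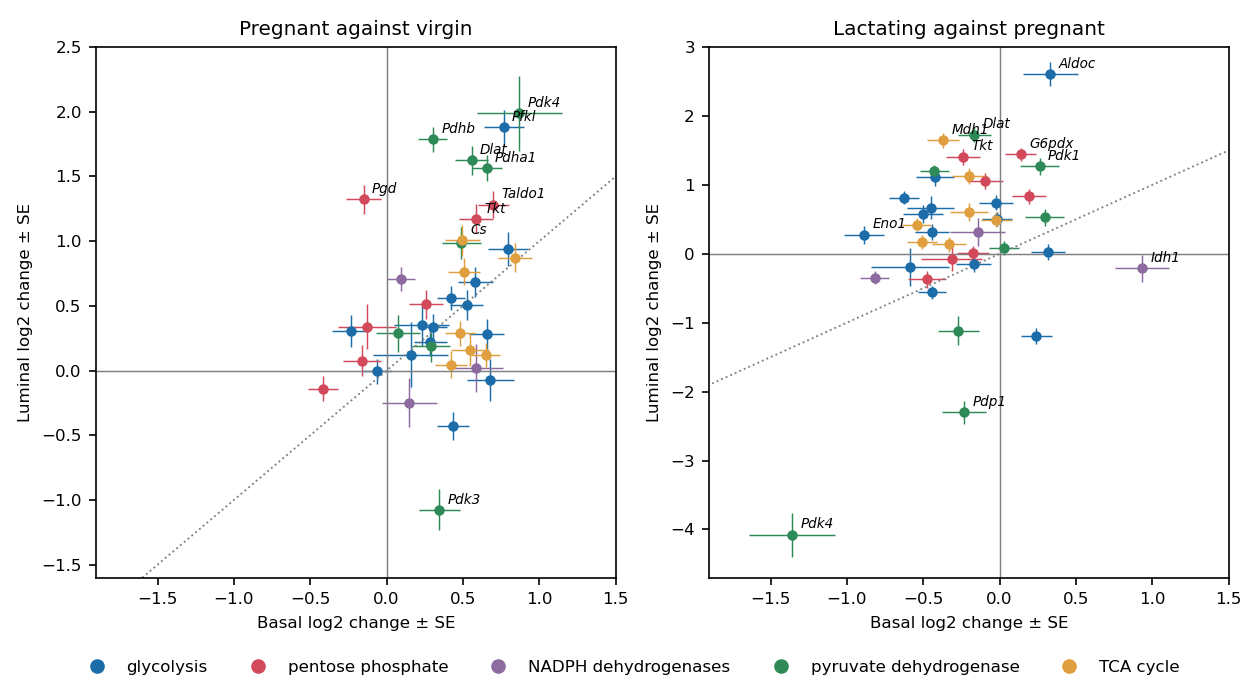
Log2 change of each member in luminal (vertical) against basal cells (horizontal), each ± SE, for pregnant against virgin (left) and lactating against pregnant libraries (right), coloured by role. The dotted line marks equal change. Dlat, Aldoc and Mdh1 lie above it and Pdk4, Pdp1 and Pfkp below it at lactation, and points near the horizontal line, such as Ogdh, Fh1 and Pgk1, turn sign with the library total alone.

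Per kb of counted length, the gene at the top of the order changed with stage in both cell types. This order leaves out the counts listed for Eno1b. Eno1 held only 6.7% to 8.6% of the counts of that pair, so its rank is uncertain and could be much higher, also above the genes named first below. Ldha was first in virgin luminal libraries at 200.3 CPM per kb, followed by Pkm at 168 and Mdh2 at 136. In lactating luminal libraries Aldoc was first at 693, ahead of Ldha at 537 and Tkt at 536, which did not differ beyond their spread, and of Mdh1 at 375. Aldoc had ranked 8 in virgin luminal libraries and Dlat moved from rank 28 to 15. In basal libraries Ldha, Pkm and Aldoa took the first 3 ranks in virgin and lactating mice, led by Ldha at 279 in virgin and by Aldoa at 212 in lactating ones. In pregnant mice Taldo1 had the highest luminal mean at 271, but Pdk4 was above it in replicate 2 (345 against 275), and Aldoa at 239 and Ldha at 237 headed the basal order with libraries that overlapped. Pdp1 had the lowest mean among basal members at each stage, although Gapdh was below it in basal lactating replicate 1 (2.26 against 2.67). The ranks of Gapdh, Pgk1, Pgam1, Pkm and Ldhb are uncertain as well, because many of their windows were shared with other genes. For Gapdh that share was 24.7%.

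A wider list of 67 pathway genes, of which 61 were tested, was counted in the same way. In luminal cells 33 rose and 11 fell in pregnancy, 31 rose and 3 fell at lactation, and 38 rose and 7 fell over the whole interval, where the shares of all genes were 21.8% and 24.1%, 23.7% and 24.6%, and 26.7% and 33.5%. With the library total alone these counts were 13 and 20, 14 and 29, and 14 and 36, so their balance turned as it did for the members. Under that scaling far more of all genes were lower than higher in luminal cells, as given above. In basal cells the counts were 31 and 5, 8 and 12, and 22 and 7, against 15.6% and 14.4%, 15.7% and 17.4%, and 23.7% in each direction, and 24 and 10, 6 and 14, and 13 and 12 with the library total alone. From virgin to lactation in luminal cells the largest rises were in Slc25a1, the mitochondrial citrate carrier (4.91 ± 0.15), Pcx, pyruvate carboxylase (4.68 ± 0.18), and Acly, ATP citrate lyase (4.25 ± 0.16). The largest falls were in H6pd (-2.44 ± 0.24), Pfkfb4 (-2.0 ± 0.28) and Eno3 (-1.25 ± 0.20). At lactation 29 of the 61 had a positive and 0 a negative luminal minus basal difference, against 18.3% and 18% of all genes. The library total alone gave 15 positive and 23 negative, where it called 1012 of all genes positive and 7921 negative. The positive differences with TMM scaling were led by Slc25a1 (3.46 ± 0.19), Aldh1l2 (2.89 ± 0.31) and Me1, the cytosolic malic enzyme that makes NADPH (2.48 ± 0.21).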

How the data were processed

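RNA was sequenced from sorted luminal and basal cells, and the values are whole-number read counts per Entrez gene, as the authors deposited them in a table of all 12 libraries. The submitters' processing notes name CASAVA 1.8.2, Subread 1.4.4, featureCounts and GRCm38/mm10, but no source used here states their roles, the strand setting or the rule for reads with several positions. Identifiers were matched to RefSeq symbols for 25275 of 27179 genes.

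The main fit was edgeR 4.0.16 (limma 3.58.1, R 4.3.3) with TMM factors, a minimum count of 10 by group, 6 group means over 12 libraries and a quasi-likelihood test, adjusted by Benjamini-Hochberg over 15969 genes and called below 0.05. Each SE was taken as |log2 change|/√F. Calls rest on 2 libraries a group, of 20015386 to 24723827 counts each, and identifiers without a symbol held 0.539% to 1.371% of the counts of a library. The fit was checked on simulated data. Tables and figures were made with Python 3.11.15. Alternatives were scaling by library size, DESeq2 1.42.0 and its size factors, other filters, each library left out, only the groups compared, replicate blocks, milk protein genes removed, luminal carry-over subtracted and, chosen after seeing the data, near-identical copies added.

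The members and lists were chosen with earlier results of these data known. The rule for named genes was the up to 8 called members with the largest change in each direction per comparison; values of further members were added after they were seen, to account for all 39. Luminal and basal libraries that share a stage and a number deviated together across 9096 genes (correlations 0.249, 0.355 and 0.161 for virgin, pregnant and lactating), so the numbers were taken to pair them, from the data and not from the labels. Groups of different stages had correlations from -0.277 to 0.164. In size, the lactating and virgin values did not exceed these, so the pairing is uncertain there.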

Additional observations from a re-analysis of the deposited data

Results flagged for a closer look

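The luminal and basal changes of 15 of the 39 members differed in pregnancy by a test of the difference itself (edgeR, adjusted over all genes). The shares of all genes tested were 14% positive and 16.7% negative. As log2 luminal minus basal, the positive differences were Pfkl 1.11, Ldha 0.55, Pgd 1.47, Tkt 0.59, Taldo1 0.58, Idh2 0.62, Pdha1 0.91, Pdhb 1.48, Dlat 1.07, Pdk4 1.12 and Cs 0.51. The negative ones were Pfkp -0.86, Ldhb -0.76, Pdk3 -1.42 and Fh1 -0.53. None of these turned sign when libraries were scaled by their total, but 6 of the 15, Ldha, Tkt, Taldo1, Idh2, Pdk4 and Cs, lost their calls under that scaling. The Pdk4 difference was 0.49 without luminal pregnant replicate 2.

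At lactation 29 members differed in the same way, where 18.3% of all genes were positive and 18% negative. The positive differences were Pfkl 1.08, Aldoc 2.27, Tpi1 0.52, Pgk1 0.76, Pgam1 1.44, Eno1 1.16, Pkm 0.76, Ldha 1.54, Ldhb 1.12, G6pdx 1.31, Pgd 1.15, Rpe 0.64, Tkt 1.65, Idh2 0.47, Pdhb 1.63, Dlat 1.90, Pdk1 1.00, Cs 1.32, Idh3a 0.81, Ogdh 0.52, Suclg1 0.47, Fh1 0.96, Mdh1 2.01 and Mdh2 0.68. The negative ones were Pfkp -1.43, Idh1 -1.14, Pdk3 -0.84, Pdk4 -2.72 and Pdp1 -2.07. With the library total alone, Tpi1, Pgk1, Pkm, Rpe, Idh2, Ogdh, Suclg1 and Mdh2 turned sign, and Pfkl, Eno1, Ldhb, Pgd, Pdk1, Idh3a and Fh1 lost their calls, which left 14 of the 29 called in the same direction. Milk protein genes took 39.2% to 40.0% of lactating luminal counts and 0.439% to 0.448% of lactating basal counts, and their part in these differences was not tested beyond the scaling alternatives.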

How the results depend on the processing

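Scaling by library size alone moved these counts of called members: 12 higher and 12 lower in luminal pregnancy, 7 and 22 in luminal lactation against pregnancy, 9 and 22 in luminal lactation against virgin, 16 higher and 2 lower in basal pregnancy, 1 higher in basal lactation against pregnancy, 8 and 9 in basal lactation against virgin, 14 lower in basal against luminal lactating cells, and 5 and 10, and 9 and 12, for the luminal minus basal differences in pregnancy and lactation. The counts over all genes moved as well, as given above, and the cause was not tested. Without the filter on low counts, and with only the groups compared, 1 member was higher in basal lactation against pregnancy, and with only the groups compared 0 were lower in basal pregnancy, where G6pdx had an adjusted p of 0.0511.

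Leaving out 1 library gave ranges of 1 to 3 lower members in luminal pregnancy, 0 to 1 lower in basal pregnancy, 9 to 17 called (1 to 3 higher, 8 to 15 lower) in basal lactation against pregnancy, 13 to 23 called (9 to 17 higher, 3 to 6 lower) in basal lactation against virgin, 6 to 10 higher in basal against luminal virgin cells, and 7 to 11 positive differences in pregnancy. The low of 9 came without basal pregnant replicate 1 or basal lactating replicate 2, and the low of 13 without basal lactating replicate 1. The other counts of members moved by at most 1.5 times under the alternatives run.

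Of 142 values of named members, 118 kept their call and direction under every alternative. These 142 were picked as the largest called changes per direction and comparison, so the count does not describe the smaller calls. The sign turns of called members with the library total alone all lay outside these 142. For luminal lactation against virgin, 13 of 32 called members kept call and direction under that scaling, and 16 turned sign. The replicate block lost no called member and added 5 calls: with the number in all groups Cs rose in basal lactation against virgin (0.30, adjusted p = 0.0418 by edgeR), giving 21 called members. With the number within stage, which left 3 residual degrees of freedom, the paired fit added Idh1 in basal against luminal virgin cells (0.0284), Pgk1 in pregnant cells (0.0386), and Idh1 (0.00986) and Pdk2 (0.0381) for the luminal minus basal difference in pregnancy. With 2 libraries a group and members such as Gapdh, Pdk3 and Pgls under 10.1 CPM in luminal cells, small changes of low genes may have been missed. For Gapdh and Pgls the listed levels are themselves uncertain, as given above. How small a change could be called was not tested.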
